A study of Sus scrofa with 12 samples.

Results

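The genes described here encode the calcium handling proteins of the heart muscle cell. A list of 10 genes was chosen by name (RYR2, CASQ2, TRDN, HRC, JPH2, ATP2A2, PLN, SLN, SLC8A1 and CACNA1C), of which 9 could be matched to a pig gene identifier. The gene table held 35682 genes, of which 15623 had a symbol and 13844 passed the filter on low counts, including all 9 matched genes. JPH2, the junctophilin that holds the sarcoplasmic reticulum close to the cell membrane, was not matched and was not analysed here.

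RNA was sequenced from the hearts of 6 female Yorkshire pigs, 10 to 12 weeks old at surgery, with 1 library from the border zone and 1 from the remote zone of each animal. The left anterior descending coronary artery of every animal was blocked with a balloon for 60 minutes and reopened. All received tacrolimus, mycophenolate mofetil and prednisolone from day 9, underwent a thoracotomy on day 14, and were killed 4 weeks after it. At the thoracotomy the heart surface received either vascular organoids of human endothelial progenitor cells and smooth muscle cells, secured with fibrin glue, or fibrin glue alone. Because no label gives the treatment of an animal, both regions hold animals of both treatments. The border zone was the tissue next to the infarct and the remote zone was the posterior wall, and the titles call both Mid. The labels describe the extracted RNA of every library as coming from the mid-border zone, also for those titled as remote, and the titles were followed. Animals are called by their label numbers (1022, 1322, 1323, 1623, 1922 and 3622).

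In each heartbeat, calcium enters the cell through the L-type channel of the cell membrane and opens the ryanodine receptor, which releases a larger amount from the sarcoplasmic reticulum and so starts contraction. Relaxation follows when the SERCA pump returns calcium to the reticulum and the sodium-calcium exchanger moves the rest out of the cell. In failing hearts this cycle is known to be slowed, and a low SERCA level relative to its inhibitors is a textbook feature of that state. The pump is held back by small membrane proteins, of which phospholamban is the main one in the ventricle, while sarcolipin is known mostly from the atria and from skeletal muscle.

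The coding sequence of SLN, which encodes sarcolipin, is shown because the results below turn on this gene. It was read from the pig genome Sscrofa11.1 with the RefSeq annotation, lies at chr9:36233741-36233836 on the minus strand in exon 3 of 3, and has 31 codons before the stop. Capitals mark the start and stop codons.
SLN coding sequence: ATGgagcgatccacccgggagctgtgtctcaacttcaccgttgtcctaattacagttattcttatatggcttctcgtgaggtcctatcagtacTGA

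SLN was the only one of the 9 calcium handling genes that passed the test between the regions, and its level in the border zone exceeded that in the remote zone in all 6 animals. The other 8 genes did not pass, and their fitted log2 fold changes lay between -0.55 and -0.05. By the quasi-likelihood test of edgeR (Benjamini-Hochberg adjustment over all genes), 1 of the 9 genes rose and 0 fell, against 2.06% of all genes tested that rose and 0.0144% that fell. The median log2 fold change of the 9 genes was -0.23, and that of all genes tested was 0.04. Without the border zone library of animal 1022 alone the median of the 9 genes was -0.05. DESeq2 also called SLN and no other member, where it called 8.07% of the genes tested higher and 2.09% lower.

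The libraries held between 15130210 and 31618680 counts on genes, and some stood apart in ways that touch these genes. The border zone library of animal 1022 had the lowest summed level of 14 cardiomyocyte genes, 20830 CPM (counts scaled to the size of the library), where the other border zone libraries began at 69500, and the highest summed level of 16 fibroblast and matrix genes, 72970, where the next was 12690. The border zone library of animal 3622 had the fewest counts and yet listed 28024 genes with counts, while the others listed 16932 to 20148. In the remote zone, transcripts of the mitochondrial genome took 33.5% of the counts of animal 3622 and 21.4% of those of animal 1322, against 13.6% to 14.7% in the other 4. CPM here are scaled by TMM, which sets the libraries on a common scale from the bulk of their genes.

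**Figure D1:**
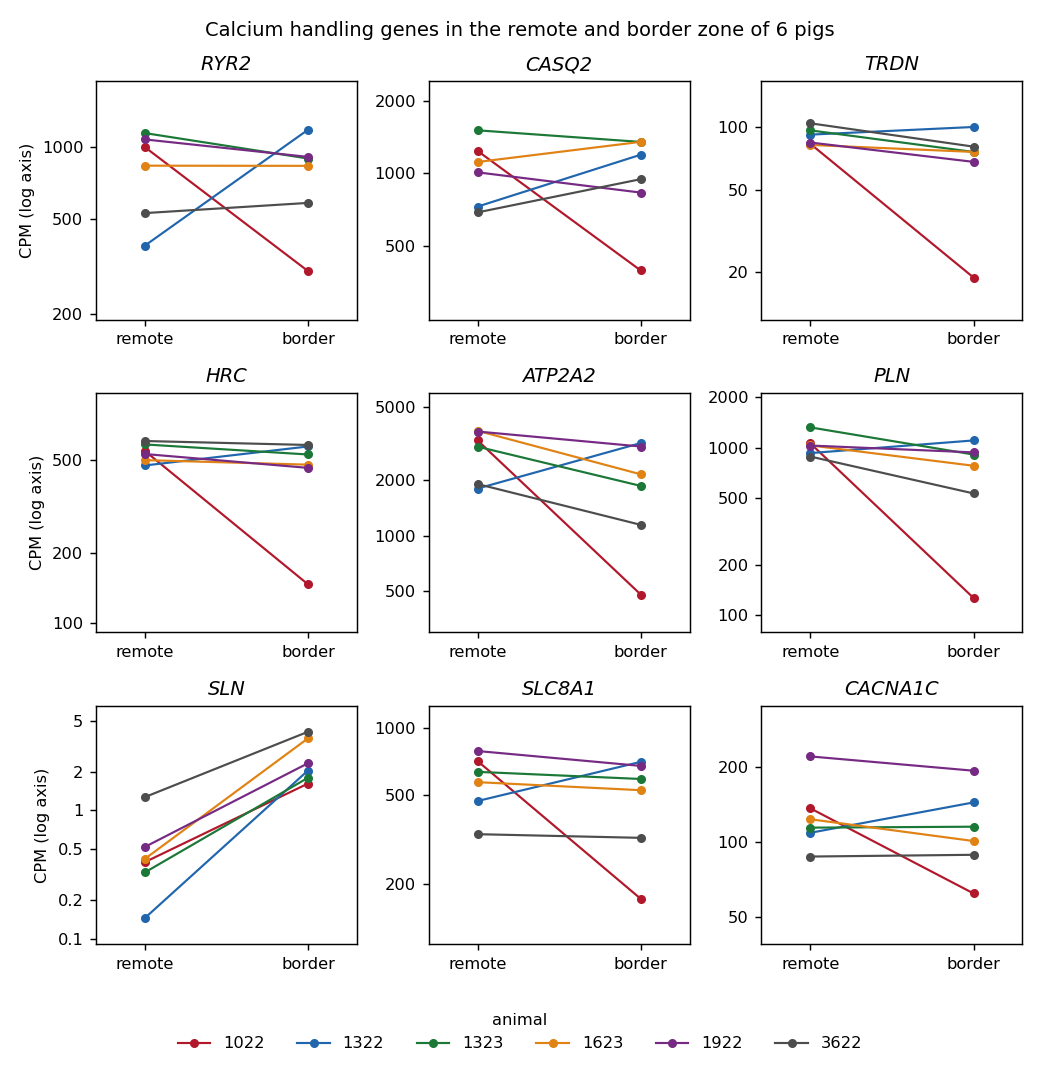
Levels of the 9 calcium handling genes in the remote and border zone of each of the 6 pigs, in CPM on log axes whose range differs between panels; a line joins the libraries of 1 animal. SLN lay higher in the border zone in every animal, and the border zone library of animal 1022 was the lowest of all 12 for the other 8 genes.

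RYR2 encodes the ryanodine receptor, the release channel itself. Its level in the border zone was 303 CPM in animal 1022, 1183 in 1322, 896.6 in 1323, 835.4 in 1623, 910.7 in 1922 and 584.4 in 3622, and in the remote zone 1001, 387.1, 1146, 836.9, 1078 and 529.7 CPM in the same order. The regions overlapped almost fully, and the largest differences within an animal went opposite ways, with the border zone at 0.303 of the remote zone in animal 1022 and at 3.06 times the remote zone in animal 1322. The fitted log2 fold change of RYR2 was -0.08 (SE 0.34), with an adjusted p-value of 0.910 by the quasi-likelihood test of edgeR with Benjamini-Hochberg adjustment.

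CASQ2, the calcium-binding protein that stores calcium inside the reticulum, ranged from 396.2 to 1351 CPM in the border zone, with a median of 1070, and from 689.5 to 1508 CPM in the remote zone, with a median of 1063. It was higher in the border zone of 3 animals and lower in 3, and its log2 fold change was -0.05 (SE 0.30). TRDN encodes triadin, which anchors calsequestrin to the release channel, and was lower in the border zone of 5 of 6 animals, with a log2 fold change of -0.37 (SE 0.28). Its 6 remote zone libraries lay close together, between 82.2 and 104.6 CPM, while the border zone ran from 18.8 CPM in animal 1022, through 68.1 CPM in the next lowest, to 100.4 CPM in animal 1322. HRC, the histidine-rich calcium-binding protein of the reticulum lumen, was as tight in the remote zone, from 474.3 to 603.5 CPM, and lower in the border zone of 5 of 6 animals, with a log2 fold change of -0.23 (SE 0.27). For these 3 genes the adjusted p-values of the quasi-likelihood test of edgeR with Benjamini-Hochberg adjustment were 0.935, 0.438 and 0.637.

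ATP2A2, the SERCA pump that refills the reticulum, had the most negative fitted difference of the 9 genes, although it too missed the test. Border zone levels were 477.2 CPM in animal 1022, 3186 in 1322, 1862 in 1323, 2153 in 1623, 3051 in 1922 and 1143 in 3622. In the remote zone the same animals had 3292, 1802, 3044, 3715, 3681 and 1906 CPM. The border zone was lower in 5 of 6 animals, at a median of 0.606 of the remote zone, and animal 1322 went the other way at 1.77 times. The log2 fold change was -0.55 (SE 0.40), with an adjusted p-value of 0.401 by the quasi-likelihood test of edgeR with Benjamini-Hochberg adjustment, and -0.72 with an adjusted p-value of 0.281 with the animal as a block.

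PLN, phospholamban, which slows the pump until it is phosphorylated, had nearly the same pattern as the pump. In the border zone it stood at 126.2 CPM in animal 1022, 1106 in 1322, 910.6 in 1323, 780.3 in 1623, 938.2 in 1922 and 532.9 in 3622. The remote zone values of the same animals were 1062, 929.1, 1324, 1033, 1031 and 885.6 CPM. Animal 1322 was again the exception among 6, and without it every border zone value was below that of the same animal's remote zone. The log2 fold change of PLN was -0.51 (SE 0.38), with an adjusted p-value of 0.415 by the quasi-likelihood test of edgeR with Benjamini-Hochberg adjustment.

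Sarcolipin, from SLN, inhibits the same pump and had few reads in every library. Its 6 border zone libraries held 1.62 CPM (49 counts) in animal 1022, 2.05 (42) in 1322, 1.80 (61) in 1323, 3.64 (106) in 1623, 2.33 (48) in 1922 and 4.10 (67) in 3622. The 6 remote zone libraries held 0.396 CPM (10 counts), 0.145 (3), 0.329 (10), 0.420 (11), 0.520 (10) and 1.27 (19) in the same order. The regions did not overlap, a pattern that 1.99% of all genes tested showed in this direction, and the lowest border zone value, in animal 1022, was above the highest remote zone value, in animal 3622. No other member was free of overlap, or higher in all 6 animals, as 11.7% of all genes tested were.

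The rise of SLN within an animal had a median of 4.97-fold. It ranged from 3.22-fold in animal 3622 (95% interval 1.91 to 5.69) to 14.1-fold in animal 1322 (4.50 to 71.0), whose remote zone held only 3 counts. These intervals are exact binomial ones on the counts and cover counting error only. The fitted log2 fold change was 2.36 (SE 0.46), with an adjusted p-value of 0.0276 by the quasi-likelihood test of edgeR with Benjamini-Hochberg adjustment. With the animal as a block it was 2.46 (SE 0.33) with an adjusted p-value of 0.0410, where 0.289% of all genes tested rose, and with DESeq2 it was 2.32 with an adjusted p-value of 5.96e-05. The call was lost with both libraries of animal 1323 (adjusted p-value 0.118), 1623 (0.117), 1922 (0.0841) or 3622 (0.0513) left out, while the fold change stayed between 2.19 and 2.64 with any 1 animal left out. Without the border zone library of 3622 alone the adjusted p-value was 0.0471, and without that of 1022 alone it was 0.0132.

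Because sarcolipin is known from the atria and skeletal muscle, genes of those tissues were read in the same libraries. Of 6 atrial genes tested, 0 passed the test by edgeR (0 of 6 by DESeq2), and their summed level was 114.1 to 475.7 CPM in the border zone and 135.4 to 230.0 CPM in the remote zone, with the border zone above in 4 of 6 animals. NPPA, the atrial natriuretic peptide, and MYL4, the atrial light chain, had log2 fold changes of 2.09 and 1.75 with adjusted p-values of 0.123 and 0.146 by edgeR's quasi-likelihood test, the potassium channel genes KCNA5 and KCNJ3 were at -0.72 (lower in all 6 animals, adjusted p-value 0.157 by the same test) and -0.19, NR2F1 and NR2F2, transcription factors of atrial identity, were at 1.78 and 0.96, the median of the 6 was 1.35, and BMP10, a ligand of the right atrium, was at 0 in 11 of 12 libraries. Within animals the median log2 difference of the 6 atrial genes was 3.58 in 1022, 2.07 in 1323, 1.05 in 1922 and 0.90 in 1623, and -0.08 in 3622 and -0.70 in 1322, while SLN was higher in the border zone in each. Of 8 skeletal muscle genes with an identifier 3 were tested, 0 passed by edgeR or DESeq2, and their median log2 fold change was 0.89. Within animals the median log2 difference of the 3 was 1.695 in 3622, 0.94 in 1623, 0.35 in 1922, 0.14 in 1022, 0.14 in 1322 and -0.23 in 1323. TNNT1, the slow skeletal troponin T, was higher in 6 of 6 animals (up to 502.9 CPM in the border zone and 315.6 CPM in the remote zone), and the fast troponin genes TNNC2 and TNNI2 in 5 of 6 each, up to 1.96 and 1.35 CPM. PYGM was lower in 5 of 6, and MYH1, MYH4, TNNT3 and MYF6 reached at most 0.245 CPM in any library. Of 7 adipocyte genes tested 0 passed by edgeR, 1 with the animal as a block and 2 by DESeq2 (ADIPOQ and PLIN1), and their median log2 fold change was 0.63. Their summed level, of which LPL made up most, had a median of 680.7 CPM in the border zone and 931.7 CPM in the remote zone, while the median log2 difference over the 7 genes was above 0 in 4 of 6 animals. PLIN1, CIDEC and PPARG were at log2 fold changes of 3.04, 1.08 and 0.63, and LIPE, LPL and FABP4 at -0.72, -0.52 and -0.46. The adipokine gene ADIPOQ was at 0 to 26.8 CPM in the border zone and at 0 to 0.955 CPM in the remote zone, with a log2 fold change of 5.37 and an adjusted p-value of 0.0540 by the same test of edgeR, 0.0476 with the animal as a block and 0.0371 by DESeq2. The part of other cells in the SLN result was not tested.

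At the cell membrane, SLC8A1, the sodium-calcium exchanger, ranged from 171.5 to 706.6 CPM in the border zone and from 334.5 to 790.2 CPM in the remote zone, and was lower in the border zone of 5 of 6 animals. Its log2 fold change was -0.23 (SE 0.32), and the adjusted p-value of the quasi-likelihood test of edgeR with Benjamini-Hochberg adjustment was 0.694. CACNA1C encodes the pore of the L-type calcium channel and ranged from 62.3 to 193.4 CPM in the border zone and from 87.5 to 220.7 CPM in the remote zone. It was higher in the border zone of 3 animals and lower in 3, with a log2 fold change of -0.17 (SE 0.28) and an adjusted p-value of 0.747 by the same test of edgeR. The border and remote values of 1 animal were close for this gene in 1323 and 3622, and animal 1922 was highest in both regions.

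Counted over animals, 5 of the 9 genes (TRDN, HRC, ATP2A2, PLN and SLC8A1) were lower in the border zone of 5 of 6 animals, as 25.0% of all genes tested were in at least 5. Animal 1322 was the exception in all 5. Without the border zone library of 1022 alone, ATP2A2 was at a log2 fold change of -0.35, PLN at -0.29, TRDN at -0.18, HRC at -0.048, SLC8A1 at -0.054 and CACNA1C at -0.035, and RYR2 and CASQ2 were above 0. Without both libraries of 1322, ATP2A2 was at -0.85, SLC8A1 at -0.41, RYR2 at -0.38, HRC at -0.35, CACNA1C at -0.28 and CASQ2 at -0.20. All 8 genes other than SLN were higher in its border zone, by a median log2 difference of 0.49, and all 8 were lower in the border zone of animals 1022 and 1922, by medians of -1.97 and -0.23. In animals 1323 and 1623 the count was 7 lower of 8, and in 3622 it was 5 lower of 8.

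The remote zone libraries of animals 1322 and 3622, with the largest mitochondrial shares, held the lowest 2 remote zone values of 6 genes, RYR2, CASQ2, ATP2A2, PLN, SLC8A1 and CACNA1C. TRDN and HRC did not follow this order, since TRDN was highest in the remote zone of 3622 and HRC was at once lowest in 1322 and highest in 3622. With the mitochondrial genes left out, SLN was again the only member past the test. Whether the mitochondrial share bears on the differences within these animals was not tested.

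**Figure D2:**
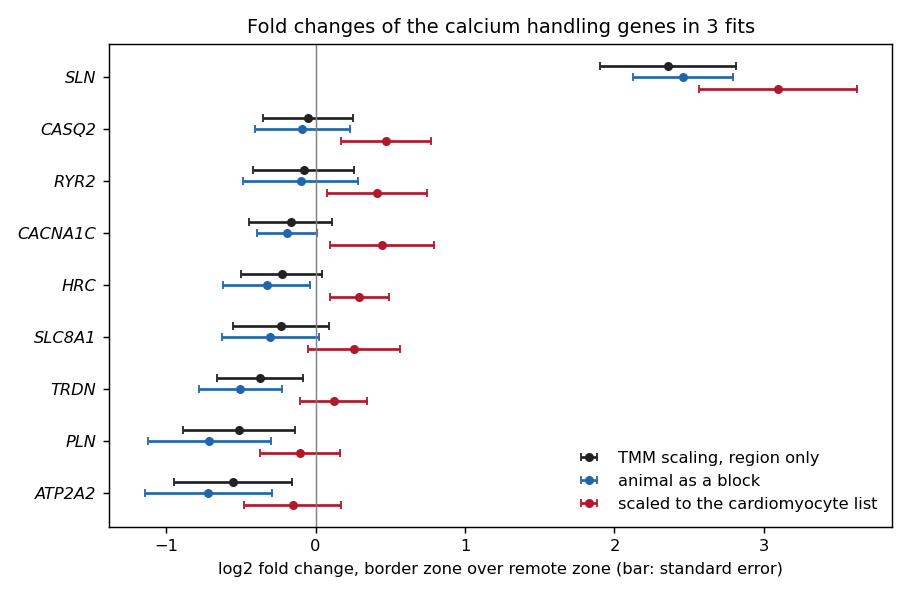
Log2 fold changes of the 9 calcium handling genes, border zone over remote zone, with bars of 1 standard error, from edgeR fits on 12 libraries with region alone, with the animal as a block, and with libraries scaled to 14 cardiomyocyte genes. The first 2 fits place 8 genes below 0, and the third places 7 of 9 above 0, while SLN lies between 2.36 and 3.09 in all 3.

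In bulk tissue, fewer heart muscle cells and less RNA per muscle cell cannot be told apart. The 14 cardiomyocyte genes, none of which passed the test (0 by edgeR and 0 by DESeq2), had a summed level that was lower on the border side of every animal, at 20830 to 101400 CPM against 80270 to 133700 CPM. All 14 were detected, and troponin genes TNNT2 and TNNI3 stood at 1072 CPM or more in every library. In the same border zone libraries, 12 of the 16 fibroblast and matrix genes rose and 0 fell by edgeR's test with region alone, and 2 rose with the animal as a block. Their median log2 difference was 4.40 in animal 1022 and 0.73 in animal 1322, the highest and the lowest of the 6, and these were also the animals with the most negative and the most positive medians of the calcium handling genes.

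**Figure D3:**
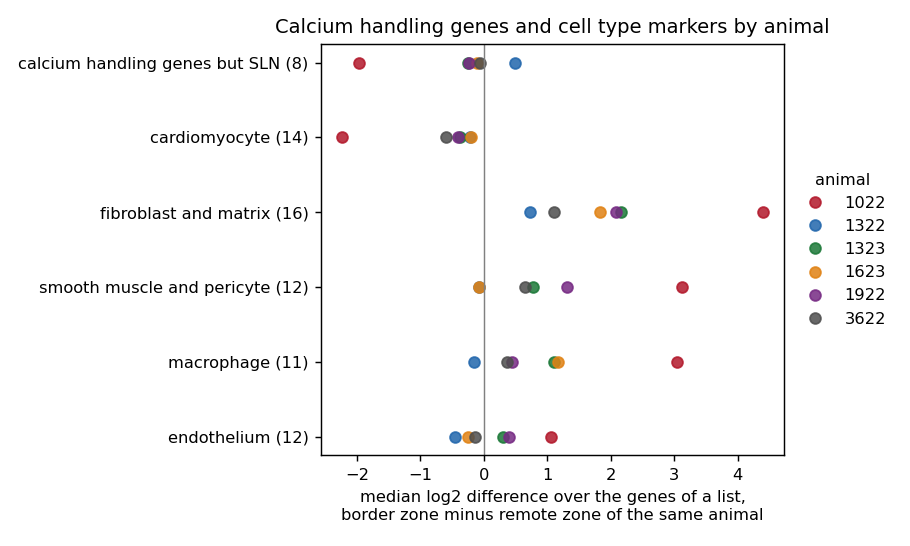
Median log2 difference between border zone and remote zone of the same animal over the 8 calcium handling genes other than SLN and over 5 lists of cell type markers, 1 point an animal, with the number of genes in brackets. Animal 1022 is at -1.97 for the calcium handling genes, -2.24 for the cardiomyocyte genes and 4.40 for the fibroblast and matrix genes, while animal 1322 is at 0.49, -0.21 and 0.73.

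Set against the mean log2 level of the 14 cardiomyocyte genes in the same library, 6 of the 9 genes had the higher value in the border zone in every animal, as 38.0% of all genes tested were on this scale. These were RYR2, CASQ2, TRDN, HRC, SLC8A1 and SLN, with median log2 differences of 0.33, 0.51, 0.12, 0.30, 0.25 and 2.84. CACNA1C was higher in 5 of 6 animals. ATP2A2 and PLN, the pump and its main inhibitor, were higher in only 2 of 6, with medians of -0.19 and -0.10. A fit scaled to the cardiomyocyte genes moved the median of all genes to 0.89, and 8 of the 9 members lay below that median, as they did with TMM. In that fit SLN was called and the other 8 genes were not, so the sign of each of those but ATP2A2 and PLN depended on the scale.

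Ratios between members were compared within animals because scaling a library moves both genes of a ratio alike, apart from the 0.1 CPM added before taking logs, which shrinks the difference of ratios with SLN. The question was whether the pump and its partners keep their proportion across regions, and 5 ratios were tested by an exact sign-change permutation test over 6 animals (two-sided), whose smallest p is 0.03125. PLN to ATP2A2, inhibitor to pump, had a median CPM ratio of 0.355 in the border zone and 0.379 in the remote zone, with a mean log2 difference of -0.03 (SD 0.35, n = 6, exact p = 0.875, adjusted 0.969). The lowest and highest animal differed by -0.57 and 0.38 on the log2 scale, so shifts of that size within 1 animal occurred in either direction.

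SLN to ATP2A2 had the higher ratio in the border zone in 6 of 6 animals. Its mean log2 difference was 2.99 (SD 0.94, n = 6), with an exact p of 0.03125, the smallest this test can give, and 0.156 after adjustment over the 5 ratios. With no other ratio at so small a p, a single ratio could not fall under 0.05 after this adjustment. Compared without the pairing, by an exact permutation test of all 12 libraries, the adjusted p was 0.0217. That test treats the 2 libraries of an animal as independent. With 0.5 CPM added the mean log2 difference was 2.36. SLC8A1 to ATP2A2, exchanger to pump, was higher in 5 of 6 animals, with median CPM ratios of 0.263 in the border zone and 0.212 in the remote zone and a mean log2 difference of 0.42 (SD 0.41, n = 6, exact p = 0.0938, adjusted 0.234). CASQ2 to RYR2 and CACNA1C to RYR2 had mean log2 differences of -0.01 (SD 0.45) and -0.10 (SD 0.63), each with an adjusted p of 0.969 by the same exact test. The ratios to ATP2A2 share the pump, and those to RYR2 share the channel.

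**Figure D4:**
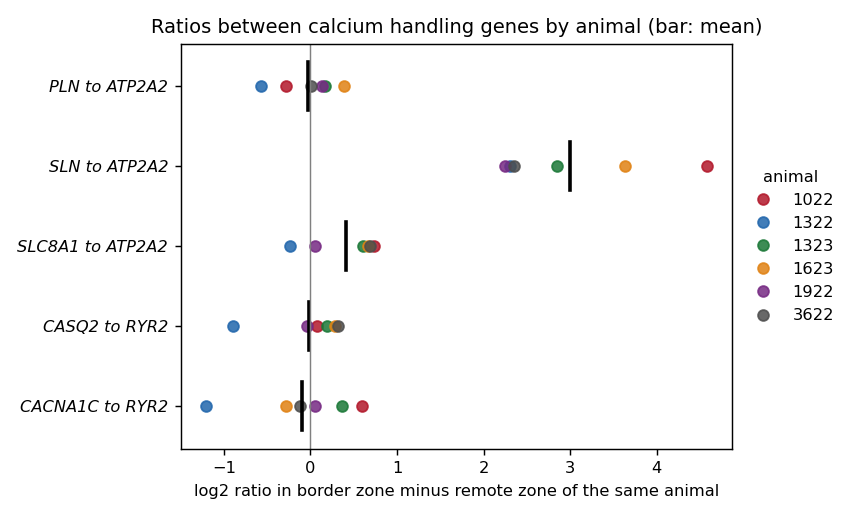
Difference of the log2 CPM ratio between border zone and remote zone of the same animal for 5 pairs of calcium handling genes; points are the 6 animals and the black bar is their mean. SLN to ATP2A2 is above 0 in all 6 animals, SLC8A1 to ATP2A2 in 5 of 6, and the other 3 ratios lie on both sides of 0.

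To compare genes with each other, levels were divided by the length of their RefSeq exons in Sscrofa11.1, which may differ from the gene models that were counted. In the remote zone the order by median was PLN at 1404 CPM per kilobase, ATP2A2 at 422.5, CASQ2 at 394.8, HRC at 231.3, RYR2 at 55.2, SLC8A1 at 29.9, TRDN at 16.0, CACNA1C at 15.9 and SLN at 0.331. PLN, with a lowest library of 1205, was clear of all others, and SLN, with a highest library of 1.03, was below all others. ATP2A2 and CASQ2 overlapped, as did HRC with both, RYR2 with SLC8A1, SLC8A1 with TRDN, and CACNA1C with TRDN, SLC8A1 and RYR2. In the border zone the medians of CASQ2 (397.9) and ATP2A2 (267.7 CPM per kilobase) stood in the other order, within ranges that overlapped.

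The positions of the genes bear on how reads could be assigned, since the libraries did not keep the strand. PLN (chr1:43449354-43458925, minus strand) lies within CEP85L on the opposite strand, and ATP2A2 (chr14:31674659-31744981, plus strand) overlaps ANAPC7 on the opposite strand. RYR2 (chr14:53652140-54406691, minus strand) overlaps 3 predicted genes on the opposite strand, and TRDN (chr1:39180544-39567245, plus strand) overlaps 2, of which 1 is on the same strand. These overlaps are of whole gene spans and exons were not compared, so whether reads of such partners were mixed was not tested. SLN (chr9:36232955-36242405, minus strand), CASQ2 (chr4:104918204-104984019, plus strand), HRC (chr6:54337348-54341638, minus strand), SLC8A1 (chr3:99823503-100257306, plus strand) and CACNA1C (chr5:69016954-69448428, plus strand) overlap no other annotated gene.

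Beyond the members, 110 other genes of calcium handling were listed, 102 had an identifier and 92 were tested. CACNA1G, a T-type calcium channel of pacemaker and embryonic heart cells, and RCN3, a calcium-binding protein of the secretory pathway, rose in the border zone by the quasi-likelihood test of edgeR with Benjamini-Hochberg adjustment, and 0 of the 92 fell, so the count of 2 in 92 was near the 2.06% of all genes tested that rose. The median log2 fold change of the 92 was -0.06.

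CACNA1G stood at 15.2 CPM in the border zone of animal 1022, 1.51 in 1322, 3.27 in 1323, 3.09 in 1623, 2.19 in 1922 and 5.93 in 3622, and at 0.396 to 0.969 CPM in the remote zone. RCN3 ranged from 26.8 CPM in animal 1322 to 262.3 in animal 1022 in the border zone, and from 9.46 to 35.8 CPM in the remote zone. Both genes were highest in the border zone of the animal with the largest difference in the fibroblast and matrix genes and lowest in that of the animal with the smallest. The log2 fold changes were 3.16 (SE 0.55, adjusted p-value 0.0228) and 2.34 (SE 0.49, adjusted p-value 0.0338) by edgeR's quasi-likelihood test. With the animal as a block neither passed, at adjusted p-values of 0.0690 and 0.0798, and 0 of the 92 genes did. Both calls were also lost with animal 1323, 1623, 1922 or 3622 left out, at adjusted p-values of 0.0935, 0.103, 0.0631 and 0.0839 for CACNA1G and 0.135, 0.115, 0.0869 and 0.0839 for RCN3, and that of RCN3 without animal 1022 (0.0549, log2 fold change 1.59) or without a filter on low counts (0.0652). CACNA1G kept its call without animal 1022, at 2.35 with an adjusted p-value of 0.0160.

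**Figure D5:**
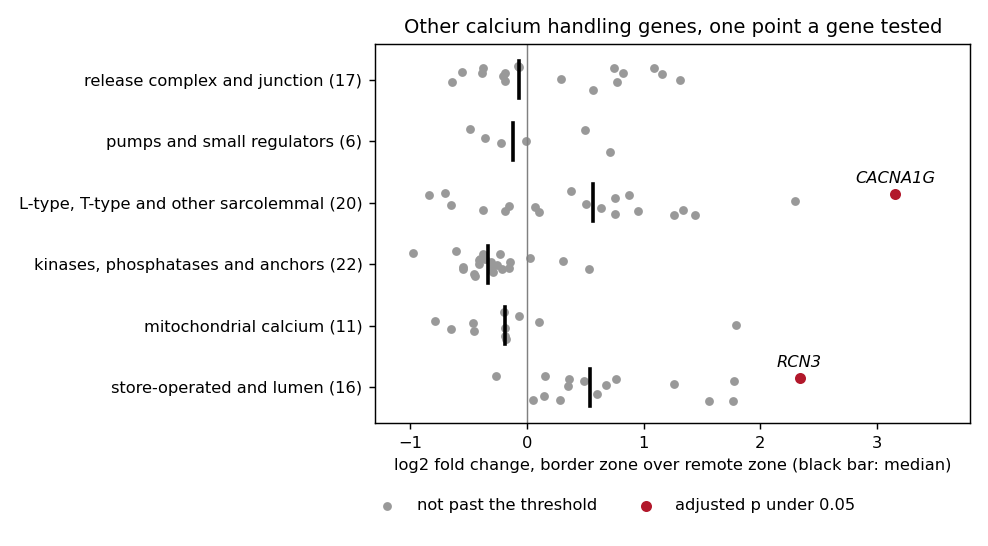
Log2 fold changes, border zone over remote zone, of 92 other calcium handling genes in 6 lists, 1 point a gene, with the number tested in brackets and the median as a black bar; vertical scatter has no meaning. CACNA1G at 3.16 and RCN3 at 2.34 are the genes with an adjusted p-value under 0.05, and the list of kinases, phosphatases and anchors has its median at -0.33.

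Of the 17 other genes of the release complex and junction, 0 passed by edgeR and the median log2 fold change was -0.06, while DESeq2 called ITPR1 and BIN1 higher and CALM3 lower, where it called 8.07% of all genes higher and 2.09% lower. DESeq2 also called RYR1 and RYR3, ryanodine receptors of other tissues that were under edgeR's filter, higher at log2 fold changes of 3.58 and 3.54. Their highest border zone libraries held 4.34 and 3.67 CPM, but their border zone medians were only 0.363 and 0.378 CPM. These fold changes thus leaned on the highest libraries of genes near the floor. JPH4, a junctophilin of neurons, had the highest value at 1.32 (SE 0.46), and TMEM38B, a potassium channel of the reticulum that balances charge during release, the lowest at -0.64 (SE 0.25). Among 6 other pumps and small regulators 0 passed by either tool, with ATP2A3, the SERCA pump of non-muscle cells, at 0.71 (SE 0.34) and PPP1R3A, a phosphatase anchor of striated muscle, at -0.49 (SE 0.36). Without animal 1022, JPH4 was at 0.77, ATP2A3 at 0.32 and PPP1R3A at -0.25. The 20 other genes of the cell membrane included CACNA1G as the 1 rise by edgeR, and their median was 0.57. DESeq2 called 4 rises there, CACNA1G, CACNB1, CACNB3 and ATP2B2, against 8.07% of all genes. CACNG6, an accessory subunit of the L-type channel, had the lowest value of that list, -0.83 (SE 0.30), and was the lower in the border zone in each of the 6 animals, with an adjusted p-value of 0.122 by edgeR's quasi-likelihood test.

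The kinases, phosphatases and anchors that set the phosphorylation of the pump and the channels had 19 of 22 genes below 0, a median of -0.33 and 0 past the test by either tool. PPP1R1A, an inhibitor of protein phosphatase 1, was at -0.97 (SE 0.44) and lower in all 6 animals, and PPP3CA, a catalytic subunit of calcineurin, which tacrolimus blocks, was at 0.53 (SE 0.30), or 0.33 without animal 1022. Of 11 mitochondrial calcium genes 9 were below 0 and 0 passed by edgeR, with a median of -0.19. MCUB, the inhibitory subunit of the mitochondrial uniporter, had the higher value in the border zone in each of the 6 animals, at a median of 3.51 against 1.19 CPM, with a log2 fold change of 1.79 (SE 0.48) and an adjusted p-value of 0.0608 by edgeR's quasi-likelihood test, and 0.0096 by DESeq2. SMDT1, the regulator that links the uniporter to its gatekeepers, was lower in all 6, with -0.78 (SE 0.29).

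The 16 genes of store-operated entry and of the reticulum lumen went the other way from the kinases, with 15 above 0, a median of 0.54 and RCN3 as the 1 rise by edgeR, where DESeq2 called 5, RCN3, RCN1, STIM1, ORAI2 and TRPC6, against 8.07% of all genes. SARAF, which switches store-operated entry off, was the 1 gene below 0, at -0.26 (SE 0.20), or -0.14 without animal 1022. Over all genes tested, 46.7% were below 0.

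By the root mean square difference of centred log2 CPM over the 12 libraries, the 3 nearest of 11725 genes with a symbol were taken for the members below. PLN was nearest to KLHL41, MLF1 and GOT1 (0.17 to 0.19), and ATP2A2 to TNNI3K, PDHX and POLDIP2 (0.17 to 0.19). CASQ2 was nearest to TEX2, MFN1 and NLK, TRDN to APOOL, SH3BGR and MRPL39, HRC to NKIRAS1, COQ6 and BZW2, SLC8A1 to TMEM120B, TMOD1 and RAPGEF4, and CACNA1C to RALGPS1, CORIN and RIPOR2, all within 0.19. SLN had no gene as near as these, with SLC7A10, MEDAG and CMKLR2 at 0.62 to 0.66 against its own spread of 1.31. It held only 3 to 19 counts in the remote zone libraries, and counting error at that depth widens such distances. The comparison therefore cannot show whether the profile of SLN differs from those of other genes. No member was among the 3 genes named for another member.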

How the data were processed

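The authors aligned paired reads to Sscrofa11.1 with STAR and the Ensembl annotation, counted reads per gene with featureCounts, and deposited raw counts, without normalization, for each of 12 libraries. The options for reads that match several genes are not given in the sources used here, so near-identical copies are uncertain. Region and animal number came from the sample titles, and 0 other columns of values were used. Libraries that share a number were taken from the same pig, which pairs them; across genes, the correlation of their deviations from the region's mean ran from -0.03 (1022) to 0.57 (1323).

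Counts were filtered by filterByExpr, scaled by TMM and tested with region as the only term by edgeR 4.0.16 (quasi-likelihood, R 4.3.3), with an adjusted p-value under 0.05 as the threshold. DESeq2 1.42.0 and the animal as a block were alternatives. Standard errors were taken as log2 fold change over the root of the F statistic. Ratios were tested in Python 3.11.15 with SciPy 1.17.1 on log2(CPM + 0.1). Steps were tested on simulated data. The genes named are all members, the calcium handling genes past the test and the largest rise and fall of each list, the 3 nearest profiles and marker genes a result turns on; the genes called by DESeq2 alone, the adipocyte and the skeletal muscle genes were named after their values were seen, as were NPPA, MYL4, KCNA5, KCNJ3, NR2F1, NR2F2, BMP10, TNNT2 and TNNI3. The members and lists were chosen with earlier results of these data known. PCR copies cannot be told apart from molecules in these counts. The nearest profiles of RYR2 and some sequences are not reported here.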

Additional observations from a re-analysis of the deposited data

Results flagged for a closer look

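In 28 groups of 6 values (the 9 genes and 5 ratios in each region), the highest or lowest library was set against its nearest neighbour by Dixon's rule, which flags about 1 in 20 groups by chance, and 4 stood apart. In the border zone, the library of animal 1022 was the lowest for TRDN, at a log2 CPM of 4.24 where the next was 6.09, for HRC, at 7.20 where the next was 8.86, and for PLN, at 6.98 where the next was 9.06. That library also had the lowest cardiomyocyte and the highest fibroblast marker level. In the remote zone, the log2 ratio of SLN to ATP2A2 was -10.44 in animal 3622, where the next highest was -12.54, in a library with 33.5% of its counts on mitochondrial genes.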

How the results depend on the processing

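The count of genes past the threshold, 287, was 41 with the animal as a replicate block, 1678 with DESeq2 (1388 higher and 290 lower), 1532 with library totals (median log2 fold change of all genes 0.31), 1744 scaled to the cardiomyocyte list (0.89), 139 without a filter, 149 with at least 10 counts in every library, and 0 to 519 with 1 animal left out (0 without 1623 or 3622, where 2662 and 2448 genes had an unadjusted p-value under 0.05). Chosen after seeing the data, the cardiomyocyte scale with the replicate block gave 11 and leaving out the border zone library of 3622 gave 156. The 1 member called, SLN, became 0 with at least 10 counts in every library, where SLN was not tested, and 0 to 1 with 1 animal left out; the replicate block changed no member's call and ended those of CACNA1G and RCN3, and that of RCN3 was also lost without a filter.

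Signs that turned were of log2 fold changes that did not pass the test. With library totals RYR2 was at 0.12, CASQ2 0.17, HRC 0.029, CACNA1C 0.051 and SARAF 0.00095. Scaled to the cardiomyocyte list, RYR2 was at 0.41, CASQ2 0.47, TRDN 0.12, HRC 0.29, SLC8A1 0.26, CACNA1C 0.44 and SARAF 0.38, and with the block as well the first 6 were at 0.55, 0.55, 0.13, 0.31, 0.33 and 0.46. Without animal 1022, RYR2 ranged up to 0.15 (from -0.38 over the animals left out), CASQ2 to 0.16 (from -0.20) and SLC8A1 to 0.0099 (from -0.41); without its border zone library alone, RYR2 was at 0.09 and CASQ2 at 0.11. The ratio of PLN to ATP2A2 ranged from -0.11 to 0.081, CASQ2 to RYR2 from -0.076 to 0.17 and CACNA1C to RYR2 from -0.24 to 0.12 with 1 animal left out. SLN to ATP2A2 was 2.99 without the replicate block too, and its adjusted p was 0.0217 by the unpaired exact test, against 0.156 by the paired one. The paired test of 6 animals has a smallest p of 0.03125, and the unpaired test treats the 2 libraries of an animal as independent. The causes of the sign changes were not tested. SLN rested on 3 to 19 counts a library in the remote zone, which limits its fold change.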
